A study of Homo sapiens with 12 samples.

Results

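The nuclear genes of mitochondrial complex I were followed across 4 treatments of a pancreatic cancer line. They were taken as the rows of the normalized count table whose gene name starts with NDUF and whose mean over the 12 libraries is at least 10. The table holds 50 such rows among 36601, and because the lowest of their means was 26.0, the minimum removed none of them. The rule used names and the level over all libraries, not the response to a drug. By role they are 7 core subunits, 9 accessory subunits of the matrix arm, 9 of the proximal membrane arm, 12 of the distal membrane arm, 8 assembly factors and 5 other rows. The 5 other rows are NDUFA4, which is now placed in complex IV, its paralog NDUFA4L2, the divergent transcript NDUFA6-DT and the antisense transcripts NDUFB2-AS1 and NDUFV2-AS1. They share the name but are not parts of complex I.

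KP4 is an established human line from a pancreatic ductal carcinoma. Its cells were kept for 24 h with the vehicle DMSO, with metformin at 10 mM (Met), with FK866 at 5 nM (FK) or with both drugs at these doses (Met+FK), and 3 libraries were made for each treatment from RNA depleted of ribosomal RNA. Metformin inhibits complex I, and FK866 inhibits NAMPT, the enzyme that rebuilds NAD from nicotinamide. All 4 groups are the same line with no genetic change named, so the data speak of 1 line. FK866 was dissolved in DMSO and metformin in culture medium, and whether the Met libraries also received DMSO is not given in the sources used here. Nothing in the labels says that the 3 libraries of a group came from separate cultures, so p-values measure only the spread between these libraries, which may be technical.

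Complex I is the NADH:ubiquinone oxidoreductase of the inner mitochondrial membrane. Its matrix arm takes electrons from NADH through a flavin and a chain of iron-sulfur clusters to ubiquinone, which regenerates NAD+, and its membrane arm pumps protons. The core subunits of the matrix arm are encoded in the nucleus and those of the membrane arm in the mitochondrial genome. Nuclear accessory subunits surround this core, and assembly factors help to build the complex but are absent from the finished enzyme.

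The files hold normalized counts, that is, read pairs per gene divided by a size factor for each library, and the read pairs could be recovered from them. The libraries held between 30667735 and 41052203 read pairs, and the NDUF rows took between 0.377% and 0.397% of them in DMSO, between 0.347% and 0.351% in Met, between 0.343% and 0.380% in FK and between 0.338% and 0.348% in Met+FK. Of the epithelial markers, KRT18 and KRT8 were abundant (means in DMSO of 18307 and 3156 normalized counts), KRT19 was low (56.5) and EPCAM was close to 0 (7.69). The sum of 5 epithelial markers, mostly KRT18, lay between 21357 and 22271 in DMSO, between 12153 and 14730 in Met, between 14139 and 18425 in FK and between 12154 and 15193 in Met+FK. The summed counts of 3 immune markers lay between 210 and 313 in DMSO and between 149 and 183 in Met, nearly all of them from PTPRC, while CD3E had a count in only 1 of the 12 libraries. Those of 3 fibroblast markers lay between 139 and 201 in DMSO and between 78.4 and 112 in Met, with DCN at 0 in every library. The part of these markers in the results below was not tested. In bulk RNA, fewer cells and less RNA per cell cannot be told apart.

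Near-identical copies and overlaps limit some rows. The GENCODE 44 annotation names 63 pseudogenes after 21 of the 50 genes, among them 12 each for NDUFB4 and NDUFA5, 6 for NDUFS5 and 5 for NDUFA3, and reads could be split between such copies. Exons of the canonical transcripts are shared with a gene of the table on the other strand in 10 of the 50 rows. The share is up to 37.3% of the canonical transcript (NDUFS7), 24.3% in NDUFB2, 18.5% in NDUFA2, 15.9% in NDUFA3 and 12.1% in NDUFS1. With the strand setting unknown these values are uncertain. Gene spans overlap a gene on the other strand in 25 rows and on the same strand in 7. NDUFS3 overlaps PTPMT1 on its own strand over 8032 bases and KBTBD4 on the other over 6780, with no canonical exon bases shared. Exons of other transcripts were not compared, so such rows can also be affected.

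Per kilobase of the canonical transcript, NDUFB9 of the distal membrane arm had the highest level in DMSO, 19155 ± 1036 normalized counts per kilobase (SD, n = 3). It was followed by NDUFB11 with 8537 ± 455 and by NDUFA1 and NDUFS5 of the proximal membrane arm with 7911 ± 591 and 7653 ± 684 per kilobase. NDUFB11, NDUFA1 and NDUFS5 do not differ as neighbours beyond these SDs. The 7 core subunits ran from 523 per kilobase (NDUFS1) to 5558 (NDUFV2), with a median of 3273. The 8 assembly factors ran from 99.4 (NDUFAF5) to 2081 (NDUFAF2), with a median of 386, which is below the median of every group of subunits. These levels depend on the transcript taken as canonical, which has 11660 bases for NDUFS1 and 5496 for NDUFA5, far above the median of 830 bases for all 50 rows.

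Metformin against DMSO asks how the inhibitor of the complex goes with the transcripts of its subunits. Most of them were lower with metformin, with 40 of the 50 rows below 0. A member was called higher or lower at an adjusted p under 0.05 in limma, with the adjustment made over all 15376 genes tested. Ratios are on the scale of log2(normalized count + 1), which understates the change of low genes, and the values given for each library are normalized counts in the order of replicates 1 to 3. On this call 29 of the 50 rows (58.0%) fell and 3 (6%) rose, beside 25.9% of all genes tested that fell and 24.9% that rose. The falls were small: the median log2 fold change of the 50 rows was −0.26, which is 16.5% lower, beside 0.012 over all genes tested. Of the 45 subunits and assembly factors alone, 28 fell and 2 rose. Only NDUFA2 and NDUFS3 fell by more than 1.5-fold (10.2% of all genes tested did) and only NDUFA4L2 rose by more than 1.5-fold (12.8% of all genes tested). The NDUF rows are more abundant than most genes (median of their means 2094 normalized counts, beside 724 over the genes tested), and the part of abundance in the number of calls was not tested. In the map of log2 ratios for every library, the Met and Met+FK columns stand apart from the DMSO columns in most rows.

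**Figure D1:**
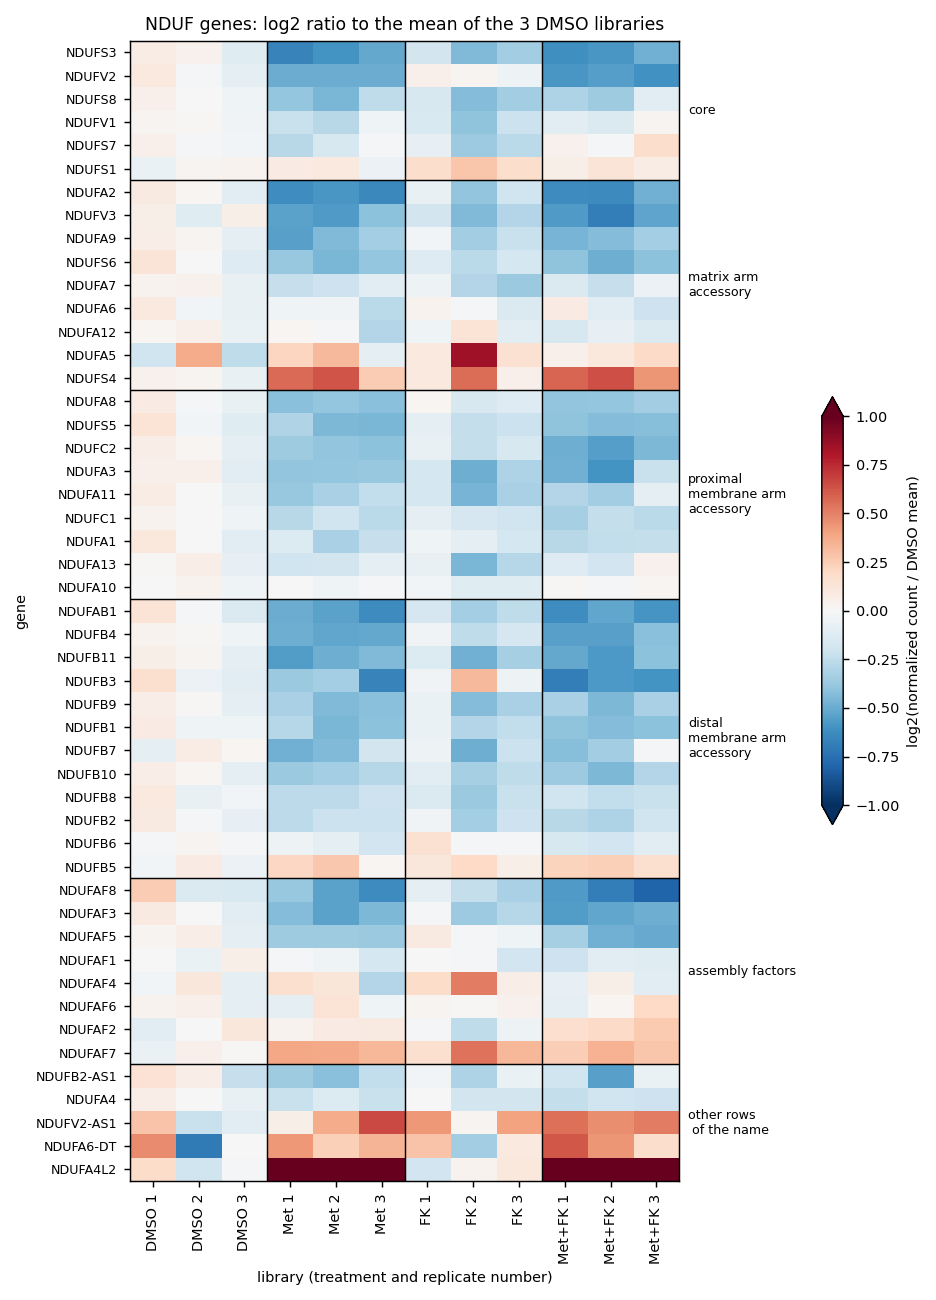
Each row is an NDUF gene and each column 1 of the 12 libraries, and the colour is the log2 ratio of its normalized count to the mean of the 3 DMSO libraries (blue lower, red higher, colours end at −1 and 1), with genes grouped by role. The Met and Met+FK columns are blue in most rows of subunits, NDUFA4L2 is past the red end of the scale in these 6 libraries and in no other, and the FK columns are paler, with FK replicate 2 the strongest of the 3.

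Of the 7 core subunits, 4 fell with metformin and none rose. NDUFS3, which lies next to the quinone-reducing part of the matrix arm (ENSG00000213619, chr11:47565336-47584562, plus strand, hg38), had 3694, 3628 and 3231 in DMSO and 2218, 2319 and 2462 in Met. All 3 Met libraries lay below all 3 DMSO libraries, and the log2 fold change was −0.59 ± 0.084 (SE, adjusted p = 4.82e-05). NDUFV2, which carries an iron-sulfur cluster beside the NADH-binding subunit (ENSG00000178127, chr18:9102630-9134345, plus strand), had 5097, 4718 and 4473 in DMSO and 3369, 3374 and 3382 in Met. Its Met libraries differed by only a few counts and again lay below all of DMSO, with a log2 fold change of −0.49 ± 0.067 (SE, adjusted p = 3.25e-05). NDUFS8, which carries iron-sulfur clusters close to the membrane, changed by −0.37 ± 0.090 (SE, adjusted p = 0.00353). NDUFV1, NDUFS7 and NDUFS1 did not pass the test. NDUFV1, which binds NADH and the flavin, had 5204, 5136 and 4977 in DMSO and 4387, 4207 and 4967 in Met and a log2 fold change of −0.18 (95% interval −0.36 to 0.00). The intervals were −0.35 to 0.05 for NDUFS7, which carries an iron-sulfur cluster, and −0.10 to 0.18 for NDUFS1, the largest core subunit, so a fall of the size seen for NDUFS3 lies outside all 3 intervals.

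In the matrix arm, 4 of the 9 accessory subunits fell (NDUFA2, NDUFV3, NDUFA9 and NDUFS6) and 1 rose. NDUFA2, a small subunit with a thioredoxin-like fold (ENSG00000131495, chr5:140638740-140647785, minus strand, hg38), had 2209, 2098 and 1911 in DMSO and 1350, 1385 and 1327 in Met, with no overlap. Its log2 fold change of −0.61 ± 0.091 (SE, adjusted p = 6.85e-05) was the lowest of the 50. NDUFV3, which sits by the NADH-binding end (ENSG00000160194, chr21:42879644-42913304, plus strand), changed by −0.50 ± 0.086 (SE, adjusted p = 2.38e-04). NDUFS4 went the other way. It is a subunit at the junction of the matrix arm whose loss causes Leigh syndrome, and its counts were 884, 872 and 813 in DMSO and 1270, 1323 and 1019 in Met. All Met libraries lay above DMSO, Met replicate 3 the least, and the log2 fold change was 0.48 ± 0.13 (SE, adjusted p = 0.00603). NDUFA5, NDUFA6, NDUFA7 and NDUFA12 did not pass the test, with values between −0.18 (NDUFA7) and 0.18 (NDUFA5, −0.23 to 0.58), the latter with replicates that spread from 864 to 1331 within DMSO.

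In the membrane arm, most subunits fell, and differences between the roles were not tested. Of its 9 proximal accessory subunits 7 fell, and all 9 values were below 0, from −0.41 (NDUFA8) to −0.02 (NDUFA10, not called). NDUFA8, which belongs to a family of proteins with paired cysteine motifs, had 3044, 2856 and 2729 in DMSO and 2156, 2199 and 2151 in Met, and its groups did not overlap (adjusted p = 3.07e-04). Of the 12 distal subunits 10 fell, with a group median of −0.37, and NDUFB6 (−0.11) and NDUFB5 (0.17) did not pass the test. The lowest was NDUFAB1, the mitochondrial acyl carrier protein, which also serves fatty acid synthesis in the mitochondrion. It had 2620, 2367 and 2158 in DMSO and 1687, 1643 and 1540 in Met and a log2 fold change of −0.55 ± 0.084 (SE, adjusted p = 8.93e-05). NDUFB4 followed with 4485, 4421 and 4259 in DMSO and 3137, 3057 and 3079 in Met and −0.51 ± 0.072 (SE, adjusted p = 4.84e-05). NDUFB9, the most abundant row per kilobase, changed by −0.39 ± 0.086 (SE, adjusted p = 0.00156). NDUFB2 (−0.23) and NDUFB7 (−0.37) kept their call in only 2 of the 6 fits that left out a library, and NDUFA1 (−0.23) in 4.

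The 8 assembly factors did not move together: 3 fell, 1 rose and 4 did not pass the test, with a median of −0.039. NDUFAF8, which works with NDUFAF5 (ENSG00000224877, chr17:81239305-81241310, plus strand, hg38), had 1363, 1035 and 1030 in DMSO and 880, 789 and 741 in Met and a log2 fold change of −0.50 ± 0.12 (SE, adjusted p = 0.00245). NDUFAF3, which helps to build the quinone-binding part, changed by −0.47 ± 0.097 (SE, adjusted p = 0.00102). NDUFAF5, which modifies NDUFS7, had 553, 567 and 505 in DMSO and 424, 423 and 419 in Met and changed by −0.36 ± 0.089 (SE, adjusted p = 0.00369). NDUFAF7, a mitochondrial methyltransferase, rose, with 428, 464 and 450 in DMSO and 584, 581 and 562 in Met and a log2 fold change of 0.36 ± 0.098 (SE, adjusted p = 0.00633). Its Met and DMSO ranges did not overlap. NDUFAF1, NDUFAF2, NDUFAF4 and NDUFAF6 had log2 fold changes of −0.08, 0.07, −0.0008 and 0.0010, and the widest of their 95% intervals was −0.28 to 0.27 (NDUFAF4, a partner of NDUFAF3).

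**Figure D2:**
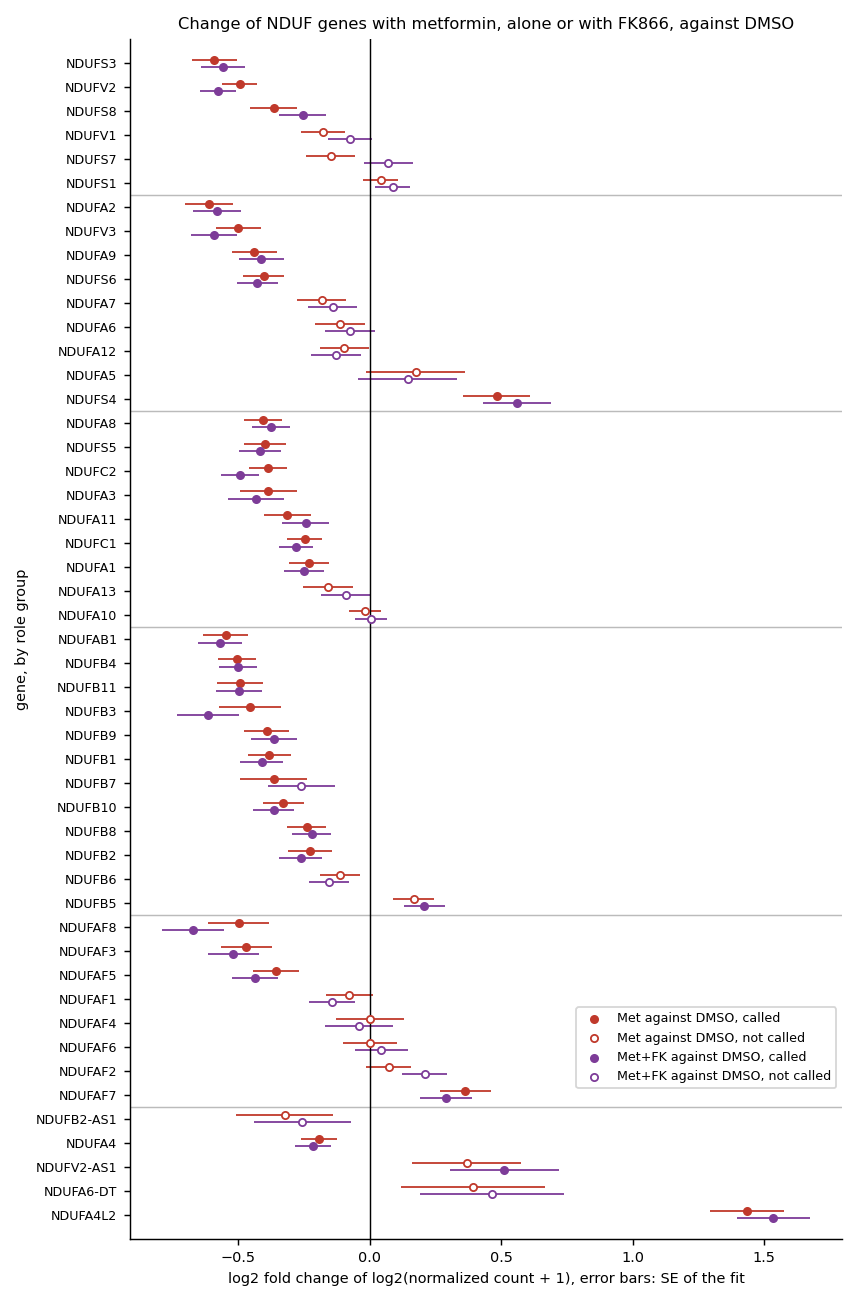
Points are log2 fold changes against DMSO on the scale of log2(normalized count + 1) for Met (red) and Met+FK (purple), bars are standard errors of the fit, and filled points passed an adjusted p of 0.05. Genes are grouped by role, from core subunits at the top to the other rows at the bottom. Most subunits lie left of 0, NDUFS4 and NDUFAF7 lie right of it, and NDUFA4L2 lies apart from all others at 1.44 and 1.54.

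Outside complex I, NDUFA4L2 was the member that changed most. It encodes a mitochondrial protein related to NDUFA4 that is known as a target of the hypoxia factor HIF-1. It (ENSG00000185633, chr12:57234903-57240715, minus strand, hg38) had 105, 80.8 and 92.1 in DMSO and 228, 236 and 293 in Met. Every Met library was above 2 times every DMSO library, and the log2 fold change was 1.44 ± 0.14 (SE, adjusted p = 1.33e-06). It was higher than 98.4% of all genes tested. Its gene shares 33 bases of exon (3.50% of its canonical transcript) with SHMT2 on the other strand, and the strand setting of the counting is not given in the sources used here. SHMT2 itself had 8765, 8281 and 8113 in DMSO and 7729, 7475 and 8796 in Met, ranges that overlap. NDUFA4, the subunit of complex IV, changed by −0.19 ± 0.070 (SE, adjusted p = 0.0304). The noncoding rows were low, with means in DMSO of 22.5 for NDUFA6-DT, 32.2 for NDUFV2-AS1 and 48.1 for NDUFB2-AS1, and none of the 3 passed the test.

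**Figure D3:**
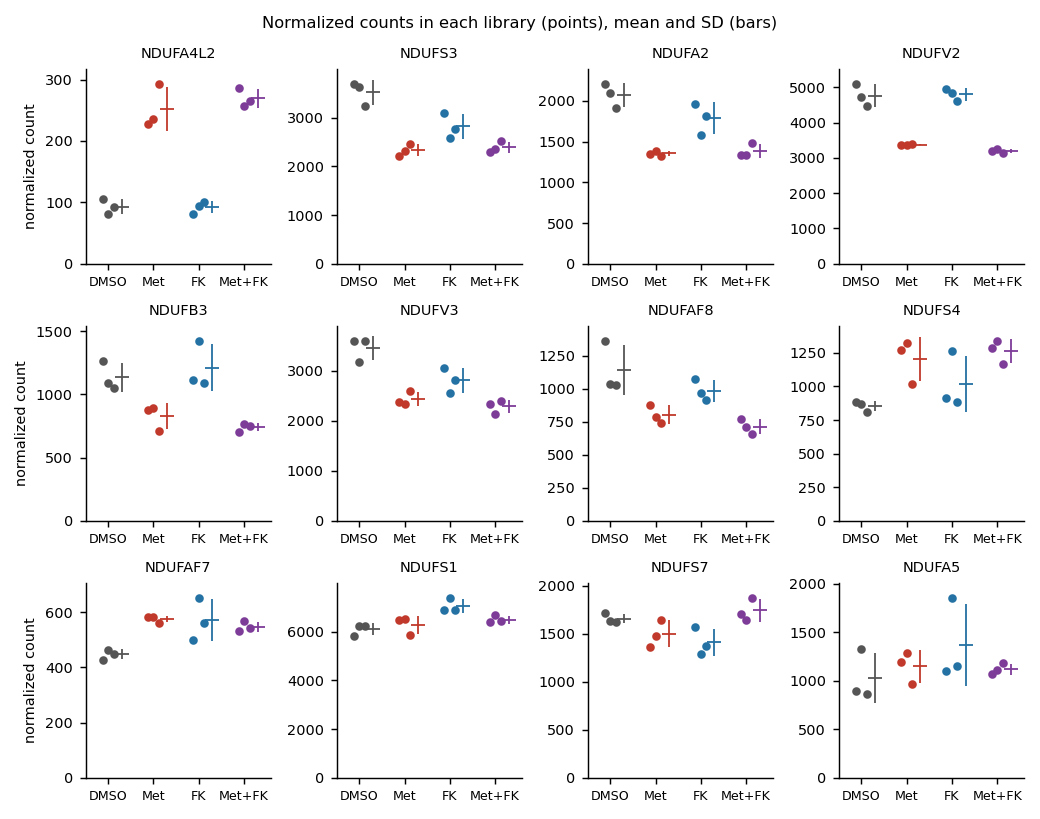
Each panel shows the normalized count of 1 gene in the 12 libraries (points, in replicate order within a treatment) with the mean and the SD of the 3 libraries beside them, on axes that start at 0. NDUFA4L2 and NDUFS4 lie higher in the Met and Met+FK libraries, NDUFS3, NDUFA2, NDUFV2, NDUFV3 and NDUFAF8 lie lower, and NDUFA5 shows single high libraries in DMSO and FK, both of replicate 2.

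Every member called with metformin kept its direction under the other scalings, tools and corrections tried, while the number of calls moved. With every library scaled to the same total, the median of all genes was 0.13 with metformin and that of the NDUF rows was −0.14. Such a scaling moves all genes of a library alike. The distance of −0.27 between these medians could therefore hardly change with it and is no test of the fall. On that scaling 21 rows fell and 4 rose, beside 19.0% and 34.1% of all genes tested. The trends on GC content and length also differed between libraries. The slope of the values on GC content, in log2 units per 10 percentage points, lay between 0.029 and 0.18 in DMSO and between −0.13 and 0.084 in Met. The slope on transcript length, in log2 units per doubling, lay between −0.056 and −0.033 in DMSO and between 0.014 and 0.022 in Met. The median GC content was 48.6% in the NDUF rows and 48.5% over the genes tested, and the median length 830 and 2989 bases. With each library's trend on GC content and transcript length removed, 29 rows fell and 3 rose, beside 32.5% of all genes that fell and 24.8% that rose, and 25 of the 29 had also fallen before. The difference between the median of the NDUF rows and that of all genes was then −0.14 in place of −0.27. The parts of GC content and of length in this were not tested apart. Over the 50 rows, the log2 fold change and GC content had a Pearson's r of −0.070 before the correction and 0.33 after it. After the correction NDUFA2 (−0.50), NDUFS3 (−0.48), NDUFV2 (−0.51) and NDUFA4L2 (1.63) kept their direction. NDUFS1, which the correction treats as a transcript of 11660 bases, went from 0.04 to −0.31.

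Promoters are shown because letters that regulators of nuclear respiratory genes are known to bind can be looked for in them. NRF1, one such factor, binds a palindrome. RefSeq promoters (GRCh38.p14, 250 bases before to 50 after the gene start) matched 42 of the 50 rows. The NRF1 letters GCATGCGC, searched on both strands, stood in 8 of the 42 (19.0%), beside 3.27% of all 27305 promoters. These 27305 were not limited to the genes tested here, while the 42 rows were all tested, so the shares have unlike backgrounds. The ETS letters CCGGAAG stood in 6 (14.3%, beside 10.7%), the YY1 letters AAGATGGCG in 6 (14.3%, beside 1.85%) and the letters TCAAGGTCA of estrogen-related receptors in none (0.359% of all promoters). The YY1 letters begin between 11 and 26 bases after the start in 5 of these 6 rows, of which NDUFA6 and NDUFA6-DT hold the same letters in a shared promoter. The windows around the NRF1 letters, and around both ETS matches of NDUFS3, read 5′ to 3′ on the strand of the gene with the matching letters in capitals:
NDUFA8 (chr9:122159760-122159803, - strand): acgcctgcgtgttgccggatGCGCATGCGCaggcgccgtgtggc
NDUFAF5 (chr20:13785004-13785047, + strand): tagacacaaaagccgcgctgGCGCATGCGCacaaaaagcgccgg
NDUFB4 (chr3:120596157-120596206, + strand): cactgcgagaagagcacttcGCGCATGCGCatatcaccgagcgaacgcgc
NDUFS6 (chr5:1801341-1801388, + strand): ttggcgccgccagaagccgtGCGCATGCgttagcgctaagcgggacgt
NDUFA6 (chr22:42090911-42090958, - strand): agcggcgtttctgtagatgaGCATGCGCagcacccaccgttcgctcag
NDUFAF4 (chr6:96897872-96897905, - strand): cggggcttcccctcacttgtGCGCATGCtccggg
NDUFS7 (chr19:1383814-1383861, + strand): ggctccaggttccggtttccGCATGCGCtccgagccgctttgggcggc
NDUFS3 (chr11:47578952-47579017, + strand): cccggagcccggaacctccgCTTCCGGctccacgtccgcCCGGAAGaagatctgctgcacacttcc
In NDUFA8, NDUFAF5 and NDUFB4 the letters match on both strands and overlap into a palindrome, across the start itself in NDUFA8 and NDUFAF5 and 159 bases before it in NDUFB4. NDUFS6 holds them on 1 strand, 46 bases before its start. These 4 genes fell with metformin (−0.41, −0.36, −0.51 and −0.40). NDUFA6, NDUFAF4 and NDUFS7 hold the same letters and did not pass the test (−0.11, −0.0008 and −0.15). The remaining row is NDUFA6-DT, which shares its promoter and the matching letters with NDUFA6 and was not called. Thus 4 of the 8 rows with these letters fell, beside 29 of all 50 rows, and whether rows with the letters fell more often was not tested. A match describes the letters and shows no binding.

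Of the regulators of nuclear respiratory genes, 8 of 9 were tested, and 3 fell with metformin and none rose. Over all genes tested, 25.9% fell and 24.9% rose, which stands beside this list and the lists below. Whether a list differed from these shares was not tested. NRF1 had 1325, 1106 and 1164 in DMSO and 765, 726 and 804 in Met normalized counts and a log2 fold change of −0.64 ± 0.10 (SE, adjusted p = 1.04e-04). PPRC1, a coactivator of NRF1, changed by −0.65 ± 0.11 (SE, adjusted p = 2.28e-04), and ESRRA, an estrogen-related receptor, by −0.34 ± 0.084 (SE, adjusted p = 0.00348). GABPA and GABPB1, which form an ETS factor, YY1, PPARGC1B and TFAM, which binds mitochondrial DNA, did not pass the test, and PPARGC1A was not tested because its values lay between 0 and 2.5. Of the 12 assembly factors of other names, 5 fell (FOXRED1, ACAD9, COA1, AIFM1 and OXA1L) and none rose. FOXRED1 had 1756, 1650 and 1621 in DMSO and 915, 872 and 1068 in Met and changed by −0.82 ± 0.093 (SE, adjusted p = 6.29e-06), and ACAD9, a partner of NDUFAF1, by −0.55 ± 0.082 (SE, adjusted p = 6.74e-05). Of the 7 subunits that the mitochondrial genome encodes, 4 fell (MT-ND1, MT-ND2, MT-ND3 and MT-ND6) and none rose. MT-ND3 had 25395, 22860 and 22091 in DMSO and 9006, 10103 and 10950 in Met and a log2 fold change of −1.23 ± 0.098 (SE, adjusted p = 1.97e-07), MT-ND6 changed by −0.88 ± 0.19 (SE, adjusted p = 0.00140) and MT-ND2 by −0.70 ± 0.11 (SE, adjusted p = 1.00e-04). MT-ND4 had a log2 fold change of 0.07 and did not pass the test.

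With both drugs, most subunits were again lower than in DMSO. In this comparison, 28 rows (56.0%) fell and 5 (10.0%) rose, beside 26.1% of all genes tested in each direction, and the median was −0.25, beside 0.014 over all genes. With the trend on GC content and length removed, 28 fell and 6 rose, beside 5051 of 15324 genes tested that fell and 4191 that rose. The distance from the median of all genes was then −0.14 in place of −0.27. Without Met+FK replicate 2 only 2 rose, beside 21.5% of all genes, and without Met+FK replicate 1 only 3, beside 3444 of 15376 genes. The comparison shares its DMSO libraries with that of metformin alone. Those that fell by more than 1.5-fold were NDUFAF8, NDUFB3 and NDUFV3, beside 11.3% of all genes, and NDUFA4L2 rose by more than 1.5-fold, beside 13.7%. NDUFAF8 had 771, 709 and 655 in Met+FK, which puts all of them below every DMSO library (−0.67 ± 0.12 SE, adjusted p = 2.29e-04). NDUFB3, a small subunit of the distal membrane arm (ENSG00000119013, chr2:201071433-201085750, plus strand, hg38), had 1267, 1091 and 1049 in DMSO and 705, 764 and 749 in Met+FK (−0.61 ± 0.12 SE, adjusted p = 5.47e-04). NDUFV3 had 2335, 2143 and 2391 in Met+FK (−0.59 ± 0.086 SE, adjusted p = 4.75e-05). NDUFA4L2 had 286, 256 and 265 in Met+FK (1.54 ± 0.14 SE, adjusted p = 5.18e-07).

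Among the core subunits, NDUFV2 (−0.58), NDUFS3 (−0.56) and NDUFS8 (−0.26) were called lower, and NDUFV1 (−0.08), NDUFS7 (0.07) and NDUFS1 (0.09) were not called. Of the distal membrane arm, 9 of 12 fell and NDUFB5 rose (0.21 ± 0.078 SE, adjusted p = 0.0365). Of the proximal membrane arm 7 of 9 fell, and of the assembly factors 3 of 8 fell and NDUFAF7 rose (0.29 ± 0.098 SE, adjusted p = 0.0217). NDUFS4 had 1285, 1340 and 1165 in Met+FK and rose (0.56 ± 0.13 SE, adjusted p = 0.00214). The antisense row NDUFV2-AS1 was called higher, with 39.2, 27.6 and 29.7 in DMSO and 47.0, 44.5 and 45.9 in Met+FK, at an adjusted p of 0.0492 that most alternatives with 1 library left out did not reach. Of the lists beside the NDUF rows, 7 of the 12 other assembly factors, 3 of the 8 regulators tested and 4 of the 7 mitochondrial subunits fell, and MT-ND4 rose (0.30 ± 0.12 (SE, adjusted p = 0.0419)). Of all genes tested, 26.1% fell and 26.1% rose. NDUFB5 was not higher once the GC and length trend had been taken out (−0.013).

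FK866 alone asks what a lower supply of NAD goes with, and fewer rows passed the test. Against DMSO, 11 rows (22%) fell and 2 (4%) rose, beside 9.84% and 11.3% of all genes tested, and no row passed 1.5-fold, which 3.49% of all genes did. The median was −0.16, beside −0.016 over all genes. NDUFS3 had 3096, 2590 and 2765 in FK, all below DMSO (−0.32 ± 0.084 SE, adjusted p = 0.0260). NDUFA3 (−0.32 ± 0.11 SE, adjusted p = 0.0479), NDUFA11 (−0.32), NDUFB11 (−0.31), NDUFS8 (−0.31), NDUFV3 (−0.30), NDUFB9 (−0.27), NDUFV1 (−0.26), NDUFAB1 (−0.25), NDUFB8 (−0.24) and NDUFB10 (−0.23) also passed, at adjusted p-values between 0.0288 and 0.0490. NDUFAF7 rose, with 500, 653 and 562 in FK (0.35 ± 0.098 SE, adjusted p = 0.0313), and so did NDUFS1, with 5836, 6236 and 6239 in DMSO and 6879, 7388 and 6895 in FK (0.21 ± 0.067 SE, adjusted p = 0.0420). NDUFV2, which fell with metformin, had 4946, 4847 and 4595 in FK, close to DMSO (0.01, 95% interval −0.13 to 0.16), and NDUFA4L2 had 81.2, 94.7 and 99.9 in FK (−0.0085, 95% interval −0.31 to 0.29). Of the other lists, 2 of the 12 assembly factors (DMAC1 and OXA1L), 1 of the 8 regulators (PPRC1) and 1 of the 7 mitochondrial subunits (MT-ND3) fell.

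The calls moved with single libraries and with GC content, while the median of the 50 rows stayed between −0.20 and −0.12 with any one library left out. Without FK replicate 2 no row was called, nor without FK replicate 3 or DMSO replicate 1, where 1.53%, 13.8% and 0.865% of all genes were called in either direction. Without DMSO replicate 3, 1 fell, beside 0.774% of all genes. Without DMSO replicate 2, 6 fell and 3 rose, beside 10.3% and 16.6%, and without FK replicate 1, 21 fell and 2 rose, beside 15.2% and 16.9%. FK replicate 2 had the lowest slope on GC content of all 12 libraries, −0.23 log2 units per 10 percentage points, beside −0.0055 and −0.021 in the other FK libraries. Over the 50 rows, which share the same 6 libraries, the log2 fold change and the GC content of the transcript had a Pearson's r of −0.64, and the rows called lower had between 48.4% and 63.5% GC. With the trend on GC content and length removed, 5 rows fell and none rose (6.83% and 4.25% of all genes tested), and r was 0.37. The median of the 50 was then −0.071, and its distance from the median of all genes was −0.043 in place of −0.14. The 5 were NDUFA9 (−0.45), NDUFA4 (−0.36), NDUFV3 (−0.34), NDUFC2 (−0.26) and NDUFB5 (−0.19), and of these only NDUFV3 was called before. Their canonical transcripts have 8356, 2035, 5725, 2168 and 4199 bases, beside a median of 830 over the 50 rows. The part of the length trend in these calls was not tested. NDUFS1 went from 0.21 to −0.15. Same-numbered DMSO and FK libraries deviated together, and in a fit blocked by replicate number 24 rows fell and 5 rose, beside 21.3% and 23.3% of all genes tested. With the block and the trend removed together, 11 fell and 1 rose (12.8% and 7.66% of all genes).

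**Figure D4:**
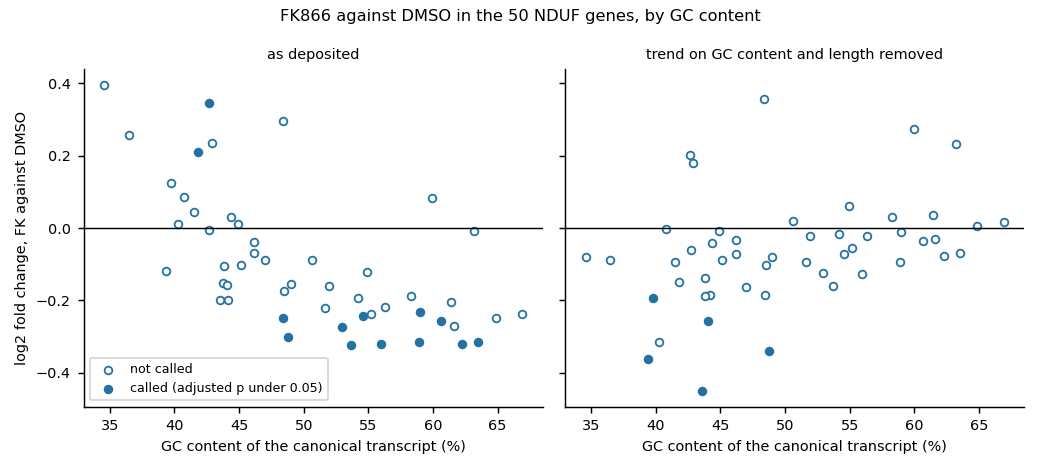
The log2 fold change of FK against DMSO of the 50 NDUF genes is plotted against the GC content of their canonical transcript (%), as deposited on the left and with each library's trend on GC content and length removed on the right. Filled points passed an adjusted p of 0.05. On the left the values fall with GC content and 11 of the 13 filled points lie below 0, and on the right 5 points are filled, all below 0 and all under 50% GC.

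FK866 added to metformin moved no NDUF row past the test. In Met+FK against Met, limma called 0 of the 50, beside 0.0976% of all genes tested. On the read pairs edgeR called 0 as well, beside 14 higher and 2 lower of 15376 genes. DESeq2 also called 0, beside 52 higher and 22 lower of 12395 genes. At an unadjusted p under 0.05 in limma there was 1 row, beside 1051 of the 15376 genes tested, and it was NDUFS7. Its counts were 1366, 1481 and 1647 in Met and 1709, 1642 and 1875 in Met+FK and its log2 fold change 0.22 ± 0.093 (SE, adjusted p = 0.686), with ranges that overlap. The median was 0.012, and the values ran from −0.17 (NDUFAF8) and −0.16 (NDUFB3) to 0.14 (NDUFV2-AS1) and 0.22 (NDUFS7). The 95% intervals, which are not adjusted for the number of genes, reached from 0.13 to 0.59 to either side of the value. The adjusted test needs larger changes than these intervals, as the value of NDUFS7 shows. The absence of calls therefore does not exclude changes of such sizes.

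The interaction tested whether FK866 changed a gene by another amount when metformin was present, as the difference between Met+FK against Met and FK against DMSO, and 0 of the 50 rows passed, beside 0.0585% of all genes tested. At an unadjusted p under 0.05 there were 11, beside 4695 of the 15376 genes tested. The median of the 50 was 0.16, beside 0.016 over all genes. The values were highest for NDUFS7 (0.46 ± 0.13 SE, adjusted p = 0.110) and NDUFS8 (0.42 ± 0.13 SE, adjusted p = 0.110) and lowest for NDUFA5 (−0.43 ± 0.27 SE, adjusted p = 0.274) and NDUFAF7 (−0.42 ± 0.14 SE, adjusted p = 0.111). Over the 50 rows, these values and the GC content of the transcript had a Pearson's r of 0.73. NDUFS7 had the highest GC content of the 50 (66.9%) and NDUFA5 the lowest (34.6%). With the trend on GC content and length removed, r was −0.37 and the median 0.097. Its distance from the median of all genes was then 0.060 in place of 0.14. The part of GC content in these values was not tested. DESeq2 on the read pairs called NDUFS7 alone, with a positive difference, beside 2.35% of all genes it tested. Same-numbered libraries also deviated together in Met and Met+FK. With the replicate block 10 rows were called with a positive difference and 1, NDUFAF7, with a negative one, beside 15.5% and 16.5% of all genes. The block sets 1 shift per replicate number for all 4 treatments. Between the other pairs of treatments the same-numbered correlations did not all pass 0.1 (DMSO and Met+FK: 0.051, 0.16 and 0.019), so these calls rest on a pairing that the values show only in part. With the block and the GC trend removed together 4 were called positive and none negative (4.81% of all genes positive), namely NDUFA9, NDUFA4, NDUFAF2 and NDUFB5, and none of these was called with the block alone. Without FK replicate 1, 8 were called positive and 1 negative, beside 6.37% and 5.63% of all genes.

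**Figure D5:**
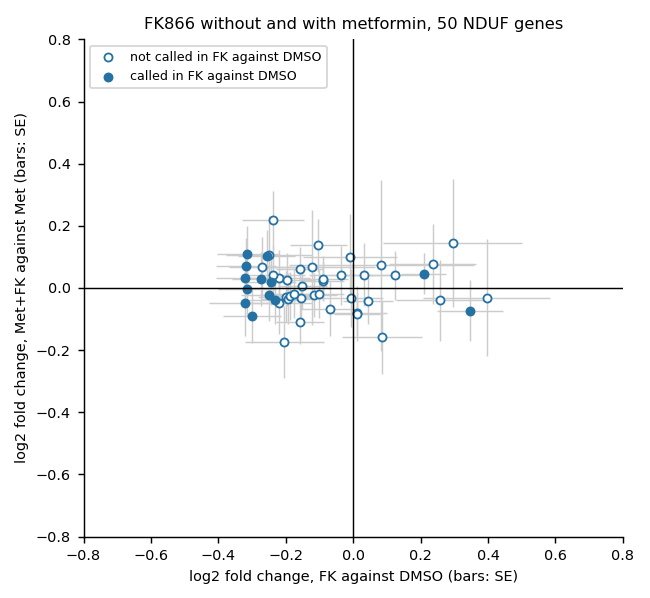
Each point is 1 of the 50 NDUF genes, with the log2 fold change of FK against DMSO on the horizontal axis and of Met+FK against Met on the vertical axis, bars are standard errors, and filled points were called in FK against DMSO. The points spread from −0.32 to 0.40 along the horizontal axis and only from −0.17 to 0.22 along the vertical axis.

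Metformin was also set against FK866 alone, by itself and on top of it. In Met+FK against FK, 16 rows (32%) fell and 3 (6%) rose, beside 21.7% and 20.5% of all genes tested. Scaled to the same total, 11 fell and 6 rose, beside 17.8% and 24.9% of all genes. Without FK replicate 1 or Met+FK replicate 2, 9 fell, beside 19.8% and 17.7% of all genes, and with the GC trend removed 6 rose, beside 25.8%. NDUFB3 and NDUFV2 fell by more than 1.5-fold (9.29% of all genes did) and NDUFA4L2 rose by as much (9.27%). NDUFB3 had 1111, 1425 and 1094 in FK and 705, 764 and 749 in Met+FK, without overlap (−0.70 ± 0.12 SE, adjusted p = 2.50e-04). NDUFV2 had 4946, 4847 and 4595 in FK and 3190, 3249 and 3123 in Met+FK (−0.59 ± 0.067 SE, adjusted p = 6.76e-06). NDUFA4L2 changed by 1.54 ± 0.14 (SE, adjusted p = 7.18e-07). The assembly factors NDUFAF8 (−0.47), NDUFAF5 (−0.45) and NDUFAF3 (−0.30) fell, as did NDUFA2, NDUFB4, NDUFC2, NDUFAB1, NDUFV3, NDUFA8, NDUFS5, NDUFS6, NDUFS3, NDUFB1 and NDUFB6, which lay between −0.36 and −0.20. NDUFAF2, the assembly factor related to NDUFA12, rose, with 1299, 1104 and 1270 in FK and 1476, 1500 and 1578 in Met+FK (0.31 ± 0.085 SE, adjusted p = 0.00811), and so did NDUFS7 (0.31 ± 0.093 SE, adjusted p = 0.0150). Of the mitochondrial subunits, MT-ND3 changed by −0.97 ± 0.098 (SE, adjusted p = 2.00e-06) and MT-ND6 by −1.25 ± 0.19 (SE, adjusted p = 9.92e-05).

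The single drugs differed directly in 13 rows. In Met against FK, which shares its Met and FK libraries with the comparisons above, 12 rows (24%) were lower and 1 (2%) was higher with metformin, beside 19.5% and 17.2% of all genes tested. Scaled to the same total, which moved the median of all genes to 0.087, 6 were lower and 3 higher, beside 13.7% and 24.4% of all genes. Without FK replicate 1 or Met replicate 2, 7 were lower, beside 17.1% and 16.7% of all genes. Without FK replicate 3, 8 were lower, beside 2494 of 15376 genes. With the GC trend removed, same-numbered Met and FK libraries deviated together. With the replicate block as well 22 were lower, beside 30.5% of all genes, and 3 higher, beside 3875 of 15324 genes. NDUFB3 (−0.54 ± 0.12 SE, adjusted p = 0.00231) and NDUFV2 (−0.51 ± 0.067 SE, adjusted p = 3.91e-05) were lowest, and NDUFA4L2 (1.44 ± 0.14 SE, adjusted p = 1.98e-06) was the one that was higher. NDUFV2 had 3369, 3374 and 3382 in Met and 4946, 4847 and 4595 in FK, without overlap. The others were NDUFA2 (−0.39), NDUFAF5 (−0.37), NDUFB4 (−0.35), NDUFA8 (−0.32), NDUFAB1 (−0.30), NDUFS3 (−0.27), NDUFA9 (−0.24), NDUFC2 (−0.23), NDUFS5 (−0.22) and NDUFS6 (−0.22). The next highest value was that of NDUFA6-DT (0.31, not called). In limma without a block, 11 rows were called in none of the 6 comparisons nor in the interaction, among them NDUFA5, NDUFA6, NDUFA7, NDUFA10 and NDUFA12. The share of all genes called in none of these was not computed, so whether 11 is few or many cannot be said.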

How the data were processed

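Per the labels and the study's methods, the authors ran cutadapt 3.7 on the read pairs and STAR 2.7.8 against hg38, counted pairs with both ends aligned with featureCounts 2.0.1 and divided the counts by DESeq2 size factors in Galaxy. The deposited values are thus a signal that is never negative, and whole read pairs were recovered from all 12 columns. The annotation and strand setting are not given in the sources used here.

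limma-trend (limma 3.58.1, R 4.3.3) was fitted to log2(value + 1) of all 12 libraries for 15376 genes whose mean reached 10, with Benjamini-Hochberg adjustment in each comparison and in the interaction. edgeR 4.0.16 and DESeq2 1.42.0 on the read pairs, other pseudocounts (0.1 and 10), filters, scalings, a loess correction for GC content and length (span 0.3) and leaving out each library were alternatives. GC content and length are those of the Ensembl canonical transcript in GENCODE 44. Deposited starts count from 0, so 1 was added.

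The replicate numbers were read as pairing libraries where all 3 same-numbered correlations of deviations from the group means passed 0.1, which held between DMSO and FK (0.25, 0.42, 0.22). It also held between Met and Met+FK (0.17, 0.20, 0.23). The pairing comes from these values alone, and after the GC correction 2 of the latter 3 (0.096 and 0.074) lie under 0.1, while those of Met and FK (0.12, 0.14, 0.12) lie above it.

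The values of 1 gene are not reported here, though counts and medians over all rows include it. Members and gene lists were chosen with earlier results of these data known. Genes were named by rule: the core subunits, the assembly factors, members past 1.5-fold, the extremes of each role or comparison with its called members, and up to 5 called genes past 1.5-fold of each other list. Other genes of those lists, and SHMT2, were named after their values were seen.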

Additional observations from a re-analysis of the deposited data

How the results depend on the processing

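Of 52 values of single genes recomputed 856 times, 767 kept their direction and side of the threshold, 40 lost their call, 19 gained one and 30 changed sign. For metformin against DMSO the counts of NDUF rows kept within 1.5 times under every alternative. With the replicate block 4 rose and 30 fell, beside 4655 and 4607 of 15376 genes. With single libraries left out 3 to 4 rose and 25 to 29 fell, beside 3164 to 3892 and 3337 to 4067 genes. The counts of Met+FK against DMSO ran from 2 to 4 and from 21 to 29 on leaving out a library, beside 3302 to 3931 and 3381 to 3835 genes. With no filter on low values 3 rose, beside 3981 of 26798 genes. For FK against DMSO, 1 rose and 5 fell with no filter, beside 981 and 731 of 26798 genes. With TMM scaling or edgeR 6 fell, beside 1130 and 1062 of 15376 genes, and with the same total 7, beside 1272. The block gave 5 and 24, the GC trend removed 0 and 5, and both together 1 rise, with the shares over all genes given above. Leaving out a library gave 0 to 3 rises and 0 to 21 falls, beside 107 to 2602 and 26 to 2341 genes.

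In Met+FK against FK, 6 rose with the same total, beside 3833 of 15376 genes, and 5 with the block, beside 3868. With the GC trend removed 6 rose, with or without the block, beside 4345 and 3960 of 15324 genes. Leaving out a library gave 2 to 4 rises and 9 to 18 falls, beside 2615 to 3156 and 2704 to 3206 genes. In Met against FK, 3 rose and 6 fell with the same total, beside 3754 and 2100 of 15376 genes. With the block 2 rose, beside 3382. With the GC trend removed 3 rose with or without the block, beside 3875 and 3469 of 15324 genes, and 22 fell with both, beside 4675. Leaving out a library gave 1 to 2 and 7 to 16, beside 2110 to 2781 and 2386 to 3018 genes. Met+FK against Met had 0 calls under each alternative and each library left out, beside at most 308 genes higher and 211 lower. The interaction had 1 positive call with DESeq2, 10 and 1 negative with the block, and 4 with the block and the GC trend removed. The shares over all genes for these are given above. With a library left out there were 0 to 8 and 0 to 1, beside 0 to 980 and 0 to 865 genes. In the other comparisons the replicate numbers did not pass the pairing rule in the values as deposited, and the block changed no count by over 1.5 times beyond those given.

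With the GC trend removed, with or without the block, the log2 fold change changed sign in metformin against DMSO for NDUFS7 (0.073), NDUFAF6 (−0.062), NDUFS1 (−0.312) and NDUFB5 (−0.106), in FK against DMSO for NDUFS1 (−0.150) and NDUFA5 (−0.080), in Met+FK against DMSO for NDUFB5 (−0.013) and in the interaction for NDUFA5 (0.128). In metformin against DMSO, NDUFAF1 was 0.045 with the same total. NDUFA10 was 0.015 with TMM, 0.104 with the same total, 0.014 with edgeR and 5.79e-04 without DMSO replicate 2 (from −0.040 on leaving out another library). NDUFAF4 was 0.032 with TMM, 0.121 with the same total, 0.042 with edgeR, 0.016 with DESeq2, 0.055 without DMSO replicate 2 and from −0.084 to 0.142 over the libraries left out, the latter without Met replicate 3. NDUFAF6 was −0.044 without DMSO replicate 3 and ran from −0.069 (without Met replicate 2) to 0.049. NDUFV2-AS1 in Met+FK against Met ran from −0.0046 (without Met replicate 1) to 0.289. The causes were not tested. The libraries number 3 a group, and counting error was not separated from the spread between them.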

Other observations

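Of 6 other enzymes that pass electrons from NADH or other donors to quinones, or between NADH and NADPH, 4 were higher with metformin than in DMSO and 1 was lower, beside 24.9% and 25.9% of all genes tested. AIFM2, which reduces quinones at the plasma membrane, had 75.0, 93.6 and 118 in DMSO and 136, 123 and 162 in Met normalized counts, with a log2 fold change of 0.57 ± 0.16 (SE, adjusted p = 0.00813). ETFDH, which passes electrons from fatty acid oxidation to ubiquinone, changed by 0.40 ± 0.13 (SE, adjusted p = 0.0163), NQO1, a quinone reductase of the cytosol, by 0.21 ± 0.066 (SE, adjusted p = 0.0141), and NNT, the transhydrogenase of the inner membrane, by 0.29 ± 0.11 (SE, adjusted p = 0.0448). With the trend on GC content and length removed, NNT was no longer higher (−0.03). DHODH, which makes pyrimidines with ubiquinone as acceptor, fell, with 913, 781 and 839 in DMSO and 631, 626 and 742 in Met and −0.34 ± 0.10 (SE, adjusted p = 0.0112). GPD2, the mitochondrial glycerol phosphate dehydrogenase, did not pass the test with metformin (0.15).

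With both drugs, AIFM2 changed by 0.89 ± 0.16 (SE, adjusted p = 2.87e-04) against DMSO, and 3 of the 6 rose and 1 fell, beside 26.1% of all genes in each direction. With FK866 alone, GPD2 rose by 0.55 ± 0.13 (SE, adjusted p = 0.0209) and DHODH fell by 0.37 ± 0.10 (SE, adjusted p = 0.0293). Of all genes, 11.3% rose and 9.84% fell with FK866. These comparisons share the DMSO libraries.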
